A study of Mus musculus with 14 samples.

Results

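The thioester protein family of the mouse was followed through spleens and ovaries that lacked the RNA-binding protein ZFP36L2. The 7 genes were taken by symbol as alpha-2-macroglobulin (*A2m*), its relatives *Pzp*, *Mug1* and *Cd109*, and the complement components *C3*, *C4b* and *Hc* (complement C5). They are 7 of the 49315 genes of the spleen count table, and 5 of them are among the 18603 genes with values in the ovary table, which gives none for *A2m* and *Pzp*. The family was chosen by the spleen log2 fold change of *A2m*, which was already known to be large in L2-fKO, so the spleen values of *A2m* are given as a description and no test of them is reported.

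Of the 14 poly(A) RNA libraries, 8 came from spleen (4 wild-type, 4 L2-fKO) and 6 from ovary (3 wild-type, 3 L2-fKO). L2-fKO animals had both *Zfp36l2* alleles recombined at a floxed exon 2 by a Cre transgene under the CMV promoter, which drives Cre in all tissues. The wild-type littermates had both *Zfp36l2* copies intact and also carried the CMV-Cre transgene, so Cre is common to all groups. The sample labels name the knockout L2-cKO and the spleen source a spleen organoid, and they give no age for a library. According to the paper, the spleens were from mouse pups shortly after birth. It reports anemia, pancytopenia and early death in L2-fKO pups. Both sexes were used for the spleens, with 2 female and 2 male wild-type animals against 1 female and 3 male L2-fKO animals, and 1 L2-fKO animal gave both L2-fKO spleen 3 and L2-fKO ovary 1.

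Proteins of this family hold an internal thioester, a reactive bond that opens after cleavage and ties the protein to a nearby surface or protease. Alpha-2-macroglobulin and its relatives PZP and MUG1 are plasma protease inhibitors. Alpha-2-macroglobulin itself traps a protease in a cage and is then cleared by the receptor LRP1. CD109 is held on the cell membrane by a lipid anchor and binds transforming growth factor beta, and C3 and C4 mark targets for the complement cascade. C5 shares the fold but has lost the thioester, and in mice its gene carries the name *Hc*. The liver is the main source of most of these plasma proteins. Macrophages and stromal cells also make C3 and C4.

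ZFP36L2 binds AU-rich elements in 3′UTRs and speeds the decay of the bound mRNA, so the 3′UTRs of the family were searched for AUUUA and for the longer UAUUUAU, on the sense strand only. A UAUUUAU always contains an AUUUA and counts for both. In the paper's gel shift assays ZFP36L2 bound probes with a single UAUUUAU, and probes with only a single AUUUA did not bind. The longest annotated 3′UTR of *A2m* has 119 bases and holds neither. That of *Mug1* has 128 bases, that of *C3* has 43 and that of *Hc* has 347, and they hold neither as well. The 3 other members hold AUUUA. *Pzp* has 2 in 137 bases, *Cd109* has 3 in 1195 bases and *C4b* has 1 in 576 bases, and none of the 7 members holds UAUUUAU. For comparison, 69.9% of the 14227 genes tested in the spleen with an annotated 3′UTR hold AUUUA and 29.5% hold UAUUUAU, and among the 618 with a 3′UTR of 80 to 180 bases the shares are 19.4% and 3.56%. *Mug2*, a near-identical relative of *Mug1*, has the longer motif in its 125 bases. The sites are printed here because they are the matches found in the longest annotated 3′UTRs of the family. The capitals mark the motif, the letters read 5′ to 3′ as RNA, and the coordinates are of GRCm38.
Pzp site 1, minus strand, chr6:128483589-128483613: aaaccauaacAUUUAuauguugaau
Pzp site 2, minus strand, chr6:128483567-128483587: aaguuaugacAUUUAcaucug
Cd109 site 1, plus strand, chr9:78715059-78715078: uuaugAUUUAuuuuucaagg
Cd109 site 2, plus strand, chr9:78716065-78716089: ucucagucaaAUUUAuucuggagua
Cd109 site 3, plus strand, chr9:78716084-78716108: ggaguaugggAUUUAuugguuuuuc
C4b site 1, minus strand, chr17:34735427-34735451: gggguuuuugAUUUAggggaugcug
Mug2 site 1, plus strand, chr6:122085841-122085863: aacuccUAUUUAUggagaaggua
The first *Cd109* site starts at base 6 of its 3′UTR, and the other 2 lie next to each other near its end. The *C4b* site lies in an isoform that ends inside the gene, and the *C4b* isoform with the 3′UTR of median length, 106 bases, has no AUUUA. A match in these letters is a description of the sequence and not a binding site.

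*Zfp36l2* itself was measured first. In the spleen its normalized count, the reads scaled to 1 common library size, was 7394, 4773, 6429 and 4362 in the wild-type libraries and 278, 326, 349 and 405 in the L2-fKO libraries. This left 5.91% of the wild-type level (log2 fold change -4.08, SE 0.21, edgeR adjusted p = 8.84e-06). In the ovary it was 4840 ± 84.0 in the wild type and 926 ± 145 in L2-fKO (SD, n = 3 each), with log2 fold change -2.40 and limma adjusted p = 0.000578. The counted reads were 39138010 to 45167464 for a spleen and 31052510 to 44270070 for an ovary. B cell and erythroid genes were abundant in every library labelled spleen and oocyte genes in every library labelled ovary. Besides the family, all 11 megakaryocyte and platelet genes tested were called lower in the L2-fKO spleen, 6 of 8 mast cell genes were called higher (5 without L2-fKO spleen 4) and *Kit* lower (-1.46), and pancreatic acinar genes were high in wild-type spleens 1, 2 and 4 (*Pnliprp1* at 6007, 1409 and 4801, against 7.95 in wild-type spleen 3).

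L2-fKO spleen 4 stands apart in a way that bears on a liver-made family. Of 17 hepatocyte genes (the list without *Trf*, which every spleen expressed), 14 were highest in that library, with 1524 summed reads against 67 to 186 in the other 7 spleens. Albumin (*Alb*) had 539 reads in L2-fKO spleen 4, 2, 0 and 2 reads in L2-fKO spleens 1, 2 and 3, and 3 to 12 reads in the wild type. Its 13 macrophage genes also summed to 154506 normalized counts, against 83804 at most in the other L2-fKO spleens. The results of the family in the spleen are therefore given with and without this library.

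*A2m* (ENSMUSG00000030111, GRCm38 chr6:121635376-121679227, plus strand, 36 exons in its longest transcript) was nearly silent in wild-type spleens and clearly expressed in each L2-fKO spleen. It had 8, 5, 8 and 4 reads in wild-type spleens 1 to 4 and 262, 123, 558 and 296 reads in L2-fKO spleens 1 to 4. As normalized counts this was 7.54, 5.05, 7.95 and 4.04 in the wild type and 273, 136, 606 and 252 in L2-fKO. The groups were far from overlapping, and the lowest L2-fKO library, replicate 2, stood well above the highest wild-type one.

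The mean normalized count of *A2m* was 6.15 ± 1.90 in the wild type and 317 ± 202 in L2-fKO (SD, n = 4 each), a ratio of 51.6. The fitted log2 fold change was 5.65 (SE 0.52), and 4 of the 16911 genes tested (0.0237%) had a larger one. Those 4 are *Fgf23*, *Prrxl1*, *Gm11638* and *4632432E15Rik*, named after their values were seen. Their wild-type means were 3.23, 0.0, 0.0 and 1.49 normalized counts in that order. Their fold changes, like that of *A2m*, thus rest on wild-type levels near the limit of detection. *A2m* was chosen by its fold change, so its rank is a description and no support. *A2m* passed the filter on low counts only through its L2-fKO libraries. It was highest in L2-fKO spleen 3, the single female of the group, and without that library the log2 fold change was 5.14. Without L2-fKO spleen 4 it was 5.75, and L2-fKO spleens 1, 2 and 3, with 0 to 2 reads of *Alb*, held 123 to 558 reads of *A2m*. The part of hepatocyte RNA in the *A2m* values was not tested. In bulk tissue, more or fewer cells of a type and more or less RNA per cell cannot be told apart.

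**Figure D1:**
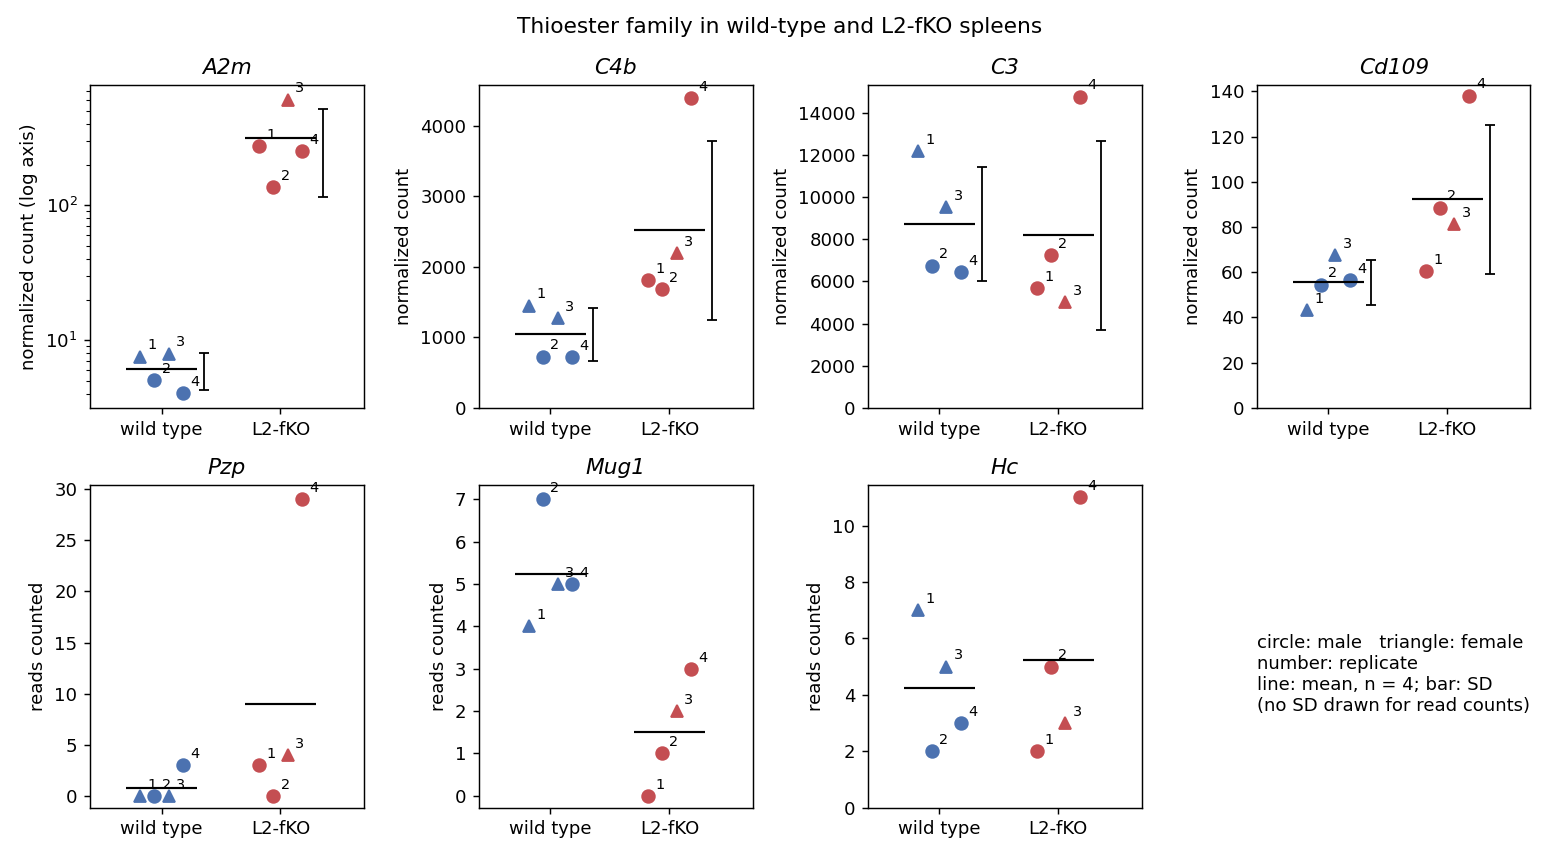
Levels of the 7 thioester family genes in each spleen library, as normalized counts (*A2m* on a log axis) or, for the 3 genes with few reads, as reads counted. Points are animals numbered by replicate, circles male and triangles female, lines are means and bars SD (n = 4). The 4 L2-fKO spleens lie between 136 and 606 for *A2m*, all above the wild-type 4.04 to 7.95, and L2-fKO spleen 4 is the highest of its group for every gene drawn except *A2m*.

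The plasma relatives of *A2m* stayed at or near the limit of detection in the spleen, and none of them was called with it. *Mug1* (chr6:121838541-121889057, 203.2 kb beyond the *A2m* start) had 4, 7, 5 and 5 reads in the wild type and 0, 1, 2 and 3 reads in L2-fKO. Every L2-fKO library was below every wild-type library, which was so for 10.8% of the genes tested in the spleen. The exact permutation test on the 4 against 4 libraries gave its smallest possible value (two-sided p = 0.0286). *Mug1* was too low for the filter, and with no filter edgeR gave a log2 fold change of -1.70 (SE 0.74, adjusted p = 0.215). Reads shared with *Mug2* and the *Mug* pseudogenes were dropped by unique counting, so the level of *Mug1* is uncertain.

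*Pzp* (chr6:128483567-128526720, about 7 Mb from *A2m* and on the minus strand) had 0, 0, 0 and 3 reads in the wild type and 3, 0, 4 and 29 reads in L2-fKO. Its reads came mostly from L2-fKO spleen 4, the library with the 539 *Alb* reads, and the groups overlapped (exact permutation two-sided p = 0.143). The part of hepatocyte RNA in that value was not tested. *Hc* (chr2:34983331-35061438) had 7, 2, 5 and 3 reads in the wild type and 2, 5, 3 and 11 in L2-fKO, again highest in L2-fKO spleen 4 (exact permutation two-sided p = 0.714). Of the other relatives, *A2ml1* had at most 2 reads and *Mug2* at most 2 in any spleen. With no filter edgeR gave *Pzp* a log2 fold change of 3.29 (SE 1.09, adjusted p = 0.0759) and *Hc* one of 0.31 (SE 0.62, adjusted p = 0.802), so neither passed at this depth.

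Among the 6 members other than *A2m*, 3 passed the filter in the spleen (*C3*, *C4b* and *Cd109*), and 1 of the 3 was called, *C4b*, against 2.90% of all genes tested called higher and 3.11% called lower, 6.01% together. A call is an adjusted p below 0.05 with an absolute log2 fold change above 1. *C4b* (chr17:34728380-34743882), the fourth component that the classical and lectin pathways cleave, had normalized counts of 1451, 726, 1269 and 719 in the wild type and 1810, 1680, 2198 and 4393 in L2-fKO. The groups did not overlap, and L2-fKO spleen 4 was far above the next library.

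The mean of *C4b* rose from 1041 ± 376 to 2520 ± 1268 (SD, n = 4 each), with log2 fold change 1.28 (SE 0.35, edgeR adjusted p = 0.0383). Every L2-fKO library lay above every wild-type library, as for 9.61% of the genes tested. Without L2-fKO spleen 4 the change was 0.87 with adjusted p = 0.0456, so the gene stayed below the adjusted p limit and lost the fold limit. It lost the p limit without L2-fKO spleen 1 (adjusted p = 0.0529), L2-fKO spleen 3 (0.0549), wild-type spleen 2 (0.107) or wild-type spleen 4 (0.11). The 2 wild-type females were above the 2 wild-type males, and the change was 1.86 (adjusted p = 0.0353) within the male libraries and 1.46 (adjusted p = 0.0408) with sex as a covariate. *C4a*, a near-identical neighbour whose reads can be lost to unique counting, had 9 to 22 reads in the wild type and 15 to 36 in L2-fKO (log2 fold change 0.55, adjusted p = 0.303).

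*C3*, on which all complement pathways converge, was by far the most abundant member and did not pass the test. Its normalized counts were 12183, 6755, 9538 and 6446 in the wild type and 5678, 7257, 5035 and 14772 in L2-fKO. The 2 extremes of L2-fKO span the whole wild-type range, and the female wild-type spleens were again above the male ones. The log2 fold change was -0.09 (SE 0.34, adjusted p = 0.889), and it was -0.54 (SE 0.23, adjusted p = 0.139) without L2-fKO spleen 4 and 0.48 (adjusted p = 0.417) within the male libraries.

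Set against *C3* within each library, *C4b* separated the groups more evenly than its level did. *C4b* reads per kilobase of exon were 10.8%, 9.71%, 12% and 10.1% of those of *C3* in the wild-type spleens and 28.8%, 20.9%, 39.4% and 26.9% in the L2-fKO spleens. The mean share was 10.6% ± 1.02 in the wild type and 29.0% ± 7.72 in L2-fKO (SD, n = 4 each), and L2-fKO spleen 4 lay inside the range of its group. This ratio was taken up after the values were seen, so no test is given, and it shows unequal change of the 2 genes without saying which moved. In the ovary the share was 4.40%, 5.0% and 3.98% in the wild type and 8.48%, 11.1% and 5.76% in L2-fKO, below the share in the spleen of the same genotype.

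**Figure D2:**
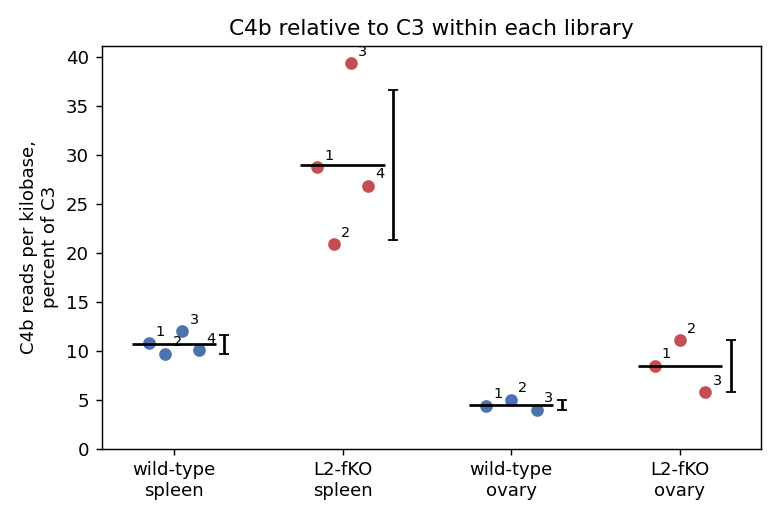
*C4b* reads per kilobase of exon as a percent of those of *C3* in each of the 14 libraries (points numbered by replicate, line the mean, bar the SD). The L2-fKO spleens lie between 20.9% and 39.4% and the wild-type spleens between 9.71% and 12%, and the ovary groups are also apart at a lower level.

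Values of other cell types moved beside these genes in the spleen. The 15 genes of the fibroblast and reticular stroma list summed to 74408 to 81965 normalized counts in the wild type and 84005 to 119985 in L2-fKO, with every L2-fKO library above every wild-type one, and *Ccl21a* was at 0 in all of them. Of the 14 tested, *Pdgfra* (1.59), *Pdgfrb* (1.15) and *Lum* (1.90) were called higher and *Pi16* (-2.22) lower on the log2 scale. The macrophage sum was 45107 to 81615 in the wild type and 79355 to 154506 in L2-fKO, and 1 of its 13 genes, *Cd5l*, was called higher (1.43, and 0.77 without L2-fKO spleen 4). None of the 5 hepatocyte genes that passed the filter was called by edgeR, 1 had an unadjusted p below 0.05 and DESeq2 called 0. The endothelial sum was 22413 to 28317 in the wild type and 29378 to 45182 in L2-fKO, again without overlap, and 0 of its 9 genes were called. In the stroma, macrophage and endothelial lists, 6, 7 and 4 genes had an unadjusted edgeR p below 0.05, and DESeq2 called 4, 2 and 0. Of all genes tested in the spleen, 29.0% had an unadjusted edgeR p below 0.05. Of all single genes tested in the spleen, 9.61% lay wholly above in L2-fKO. L2-fKO spleen 4 had the highest stroma, macrophage and endothelial sums. The other L2-fKO spleens reached at most 93342.5, 83803.8 and 31410.3 in that order. The part of these cell types in the *C4b* and *C3* values was not tested.

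*Cd109* (chr9:78615546-78716253), the membrane-bound member with 3 AUUUA, had normalized counts of 43.4, 54.6, 67.6 and 56.6 in the wild-type spleens and 60.6, 88.6, 81.5 and 138 in the L2-fKO spleens. The L2-fKO libraries leaned higher, but replicate 1 lay inside the wild-type range. The log2 fold change was 0.73 (SE 0.28, edgeR adjusted p = 0.110, exact permutation two-sided p = 0.0571), and 0.47 (adjusted p = 0.188) without L2-fKO spleen 4.

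The order of the members was compared on reads per kilobase of exon scaled to the reads counted (RPKM), which allows for gene length. In the wild-type spleen the levels were 39.7 ± 13.6 for *C3*, 4.28 ± 1.69 for *C4b* and 0.187 ± 0.0352 for *Cd109* (SD, n = 4), with no overlap between them. *Mug1* at 0.0209, *A2m* at 0.0205 and *Hc* at 0.0156 followed and did not differ beyond their spread, and *Pzp* was lowest at 0.00261. In the L2-fKO spleen *A2m* stood at 1.02 ± 0.566 (0.448 to 1.80), below *C4b* at 10.5 ± 6.36, and its range over libraries overlapped that of *Cd109* at 0.315 ± 0.142 (0.199 to 0.520). Within each L2-fKO spleen *A2m* was above *Cd109* and below *C4b* and *C3*.

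In the ovary none of the 5 members with a value was called by limma on log2(normalized count + 1), against 0.730% of the 18504 genes tested called higher and 0.227% called lower, 0.957% together. One of the 5, *Cd109*, had an unadjusted p below 0.05, and edgeR and DESeq2 on the recovered reads called 0 of the 5 as well. *Cd109* had normalized counts of 465, 475 and 405 in the wild type and 782, 784 and 591 in L2-fKO. The L2-fKO ovaries were all above the wild-type ones, as for 13.2% of the genes tested, and ovary 1, which shares its animal with L2-fKO spleen 3, was not apart.

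The *Cd109* mean in the ovary was 448 ± 38.2 in the wild type and 719 ± 111 in L2-fKO (SD, n = 3 each), with log2 fold change 0.67 (SE 0.14, limma adjusted p = 0.0720). The exact permutation two-sided p was 0.1, the smallest that 3 against 3 allows. DESeq2 put the adjusted p at 0.00113 with a change of 0.68, under the fold limit of 1, where DESeq2 put 6.02% of all tested genes under the adjusted p limit at any fold and limma 1.58%. The sizes in spleen (0.73) and ovary (0.67) stand side by side only, since the tables were normalized separately and no test of their difference was made.

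*C4b* had 79.1, 51.0 and 45.9 in the wild-type ovaries and 159, 106 and 54.7 in the L2-fKO ovaries. The groups overlapped through L2-fKO ovary 3 and the log2 fold change was 0.76 (SE 0.41, adjusted p = 0.396). *C3* had 1624, 921 and 1040 in the wild type and 1695, 860 and 858 in L2-fKO, with 1 high library in each group and a change of -0.11 (SE 0.31, adjusted p = 0.893). *Hc* changed by -0.30 (SE 0.43, adjusted p = 0.769) from 46.5 ± 10.2 to 40.9 ± 20.0, and *Mug1* by -0.01 (SE 0.59, adjusted p = 0.995) from 14.4 ± 4.15 to 17.0 ± 11.7 (SD, n = 3 each). *Mug2* had 27.5 to 48.7 in the wild type and 15.4 to 62.6 in L2-fKO, with overlapping groups.

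**Figure D3:**
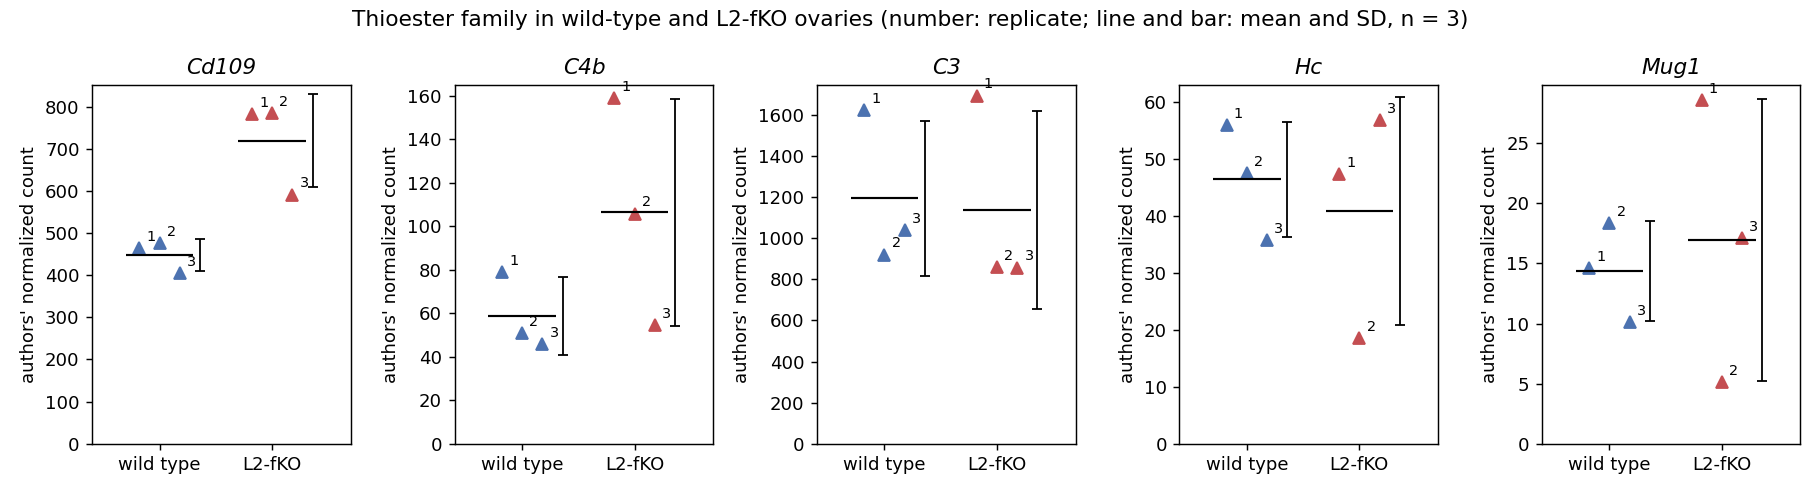
Normalized counts of the 5 members with ovary values in each ovary library (points numbered by replicate, line the mean, bar the SD, n = 3). The groups are apart for *Cd109*, at 405 to 475 in the wild type and 591 to 784 in L2-fKO, and overlap for *C4b*, *C3*, *Hc* and *Mug1*.

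Per length, the ovary had another order than the spleen. *C3* led at 4.84 to 8.36 RPKM in the wild type, *Cd109* followed at 1.62 to 1.86, then *C4b* at 0.222 to 0.368 and *Hc* at 0.158 to 0.236, whose ranges overlap, and *Mug1* was last at 0.0483 to 0.0861. *Cd109* was thus above *C4b* in each ovary and below it in each spleen, while *C3* was first in both.

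The partners of the family were read from 9 lists of complement, alpha-2-macroglobulin and acute phase genes, which held 111 genes found in the count table, 77 of them tested in the spleen. Of these 77, 12 were called higher and 8 lower, beside 2.90% and 3.11% of all genes tested. *Il6* and *Cfi*, counted among the 12, passed the filter only through the L2-fKO libraries in which they were high. The median log2 fold change of the 77 was 0.28, beside -0.02 over all genes tested. Without L2-fKO spleen 4 the same 12 were called higher and the same 8 lower, and *Clu*, a regulator of the terminal pathway, was also called lower (-1.04, adjusted p = 0.04). In the ovary 83 were tested and 2 were called higher by limma, beside 0.730% of all genes tested, with a median of 0.11. None was called lower by limma, edgeR or DESeq2.

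Of the 20 called genes, 10 stood on 1 list. Of 19 tested genes of IL-6 to STAT3 signalling and the acute phase, 6 were called higher and 4 lower. *Il6*, the cytokine for which rat alpha-2-macroglobulin is a classic acute phase target, rose from 1.99 to 5.05 in the wild-type spleens to 10.2 to 25.0 in the L2-fKO spleens (log2 fold change 1.97, adjusted p = 0.0159). With 2 to 5 reads in the wild type, *Il6* passed the filter only through its L2-fKO libraries. *Osm*, oncostatin M of the same cytokine family, rose from 168 ± 31.2 to a mean of 763 (2.18, adjusted p = 0.000834).

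The receptor subunits *Il6st* (gp130, 1.29, adjusted p = 0.000687) and *Osmr* (1.53, adjusted p = 0.00225) rose with them, and *Il6ra* was at -0.06 (adjusted p = 0.897). *Socs3*, a STAT3 target that feeds back on gp130, had 652, 659, 604 and 457 in the wild type and 3402, 3048, 3603 and 2633 in L2-fKO (2.42, adjusted p = 1.86e-05). *Stat3* itself was at 0.43 (adjusted p = 0.166). *Serpina3n*, an acute phase protease inhibitor, had 225, 66.7, 32.8 and 70.8 in the wild type and 956, 807, 1126 and 1001 in L2-fKO (3.29, adjusted p = 0.00273).

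The 4 that fell on the same list were *Orm1* (-2.41), *Lcn2* (-1.96), *Hp* (-1.86) and *Lbp* (-1.06). *Lcn2* and *Hp* are also stored in neutrophil granules, and *Lbp* encodes a lipopolysaccharide carrier. The liver-type acute phase genes *Saa1* and *Saa2* had no read in any spleen. Without L2-fKO spleen 4 the list again had 6 genes called higher and 4 lower. In the ovary 17 of these genes were tested and none was called by limma, 3 had an unadjusted p below 0.05 and DESeq2 called 0.

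The receptors of alpha-2-macroglobulin were read next. *Lrp1*, which clears the protease complexes, had 4927 to 5307 in the wild type and 5333 to 9085 in L2-fKO, without overlap but at 0.36 and adjusted p = 0.176. *Lrp8*, a related receptor, rose from 351, 251, 539 and 246 to 1412, 1329, 1587 and 983 (1.94, adjusted p = 0.00162), the single call among the 4 genes of that list. The chaperone *Hspa5*, which on the cell surface binds activated alpha-2-macroglobulin, was at 0.24 (adjusted p = 0.210).

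In the complement lists the calls were scattered over the cascade. In the classical and lectin pathway 1 of 13 tested genes was called, *Fcnb*, a ficolin of neutrophils and myeloid cells (-2.12, adjusted p = 0.0198). The proteases of the C1 complex, *C1s1* (0.70, adjusted p = 0.0214), which cleaves C4, and *C1ra* (0.77, adjusted p = 0.0339), which activates C1s, passed the p limit under the fold limit. *C1qa* (0.34, adjusted p = 0.392) and *Fcna* (0.30, adjusted p = 0.471), the genes of the list with the highest wild-type counts, did not pass, nor did *C1qc* (0.56, adjusted p = 0.152).

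In the terminal pathway *C6*, a pore subunit, rose from 153, 102, 92.4 and 95.0 to 403, 344, 524 and 948 (2.33, adjusted p = 0.00212), and was called without L2-fKO spleen 4 too (1.94). Among the 9 regulators tested, *Cfi*, the protease that degrades C3b and C4b, rose from 1.01 to 3.77 in the wild type to 17.0 to 36.9 in L2-fKO (3.11, adjusted p = 0.00167). It had 1 to 4 reads in the wild type and, like *Il6*, passed the filter only through L2-fKO. *Serping1*, the inhibitor of the C1 proteases, was at 0.94 with adjusted p = 0.0156, under the fold limit. Of the 8 receptors, *Itgam*, the alpha chain of complement receptor 3, fell from 959, 1055, 1144 and 908 to 185, 286, 71.7 and 292 (-2.28, adjusted p = 0.00344). Neither gene of the alternative pathway that was tested, *Cfb* (0.91, adjusted p = 0.198) and *Cfp* (-0.09, adjusted p = 0.848), was called by edgeR, and neither had an unadjusted p below 0.05 or a DESeq2 call.

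Other secreted protease inhibitors moved both ways, with 3 of 20 called higher and 2 lower. *Timp1* (1.08), *Itih3* (1.61) and *Spint1* (1.91) rose, and *Slpi* (-1.20) and *Spint2* (-1.28) fell. *Timp1* blocks matrix metalloproteases, *Itih3* is a heavy chain of the inter-alpha-trypsin inhibitor, and *Spint1*, *Spint2* and *Slpi* block serine proteases.

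In the ovary 2 partners of complement were called higher. *Colec11*, a collectin that starts the lectin pathway, had 117, 130 and 135 in the wild type and 291, 568 and 305 in L2-fKO (1.53, limma adjusted p = 0.0373). *Cd55*, which speeds the decay of the C3 convertases, had 1935, 2129 and 2007 in the wild type and 4597, 8196 and 4878 in L2-fKO (1.49, adjusted p = 0.0194). Both calls were lost when any 1 of the 3 wild-type ovaries was left out. In the spleen *Cd55* was at -0.42 (adjusted p = 0.0532), with 2229 to 3021 in the wild type and 1694 to 2105 in L2-fKO. The ovary sums of macrophage genes (3180 to 3768 in the wild type and 4248 to 5633 in L2-fKO) and of erythroid genes (5650 to 9416 and 11860 to 21100) did not overlap between the groups. The endothelial sums (15835 to 16689 and 19389 to 23686) and T cell sums (300.0 to 488 and 556 to 589) were likewise above in L2-fKO and the acinar sums (1591 to 1915 and 869 to 986) below. Of all single genes tested in the ovary, 13.2% lay wholly above in L2-fKO. Limma called 0 of the 12 macrophage, 8 erythroid, 9 endothelial and 8 acinar genes tested. In that order 8, 6, 6 and 1 had an unadjusted p below 0.05, and DESeq2 called 1, 2, 0 and 1. Of the 4 T cell genes tested, limma called *Cd4* (2.12) and not *Cd3g* (0.73), *Trac* (0.09) or *Lck* (0.01). The part of these cell types in the *Colec11* and *Cd55* values was not tested.

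Within 1000 kb of the *A2m* start 22 other genes were tested in the spleen. Of these 1 was called higher and 2 lower, beside 2.90% and 3.11% of all genes tested. Their median log2 fold change was -0.10. *Gdf3*, 970 kb beyond the start, rose by 1.80 (adjusted p = 0.0126), *Tuba8*, at -424.7 kb, fell (-2.25, adjusted p = 0.00537), and *Slc6a12*, the nearest tested gene before it, at -292.3 kb, fell (-1.88, adjusted p = 0.0221). Without L2-fKO spleen 4 the counts were 1 higher and 3 lower. *Klrg1*, the nearest tested gene beyond it at 635.2 kb, was at 1.09 with adjusted p = 0.0633. The *Mug1* and *Mug2* genes lie between *A2m* and *Klrg1* and were too low to test.

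**Figure D4:**
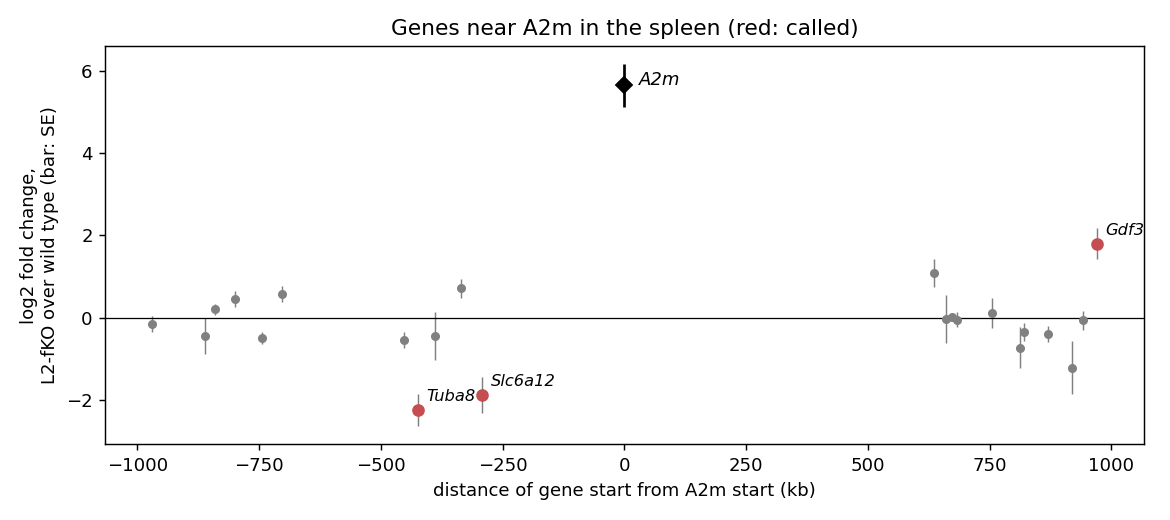
Log2 fold change of L2-fKO over wild-type spleen (bars SE) against the distance of each tested gene's start from that of *A2m* in kilobases, for the 22 neighbours within 1000 kb. *A2m* (diamond) is at 5.65 and the neighbours lie between -2.25 and 1.80, with the 3 called genes in red.

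The genes whose pattern over the 8 spleens was most like that of *A2m* were sought among 13764 genes with a mean of at least 1 CPM (reads scaled to library size), as Pearson's r on log2 values. They were *Tmem200a* (r = 0.998), *Apol10a* (0.989), *Fgf23* (0.987), *1700030C10Rik* (0.987) and *Gpx3* (0.983). These r describe 8 points in 2 groups that share libraries and depth. With each group's mean removed, r was 0.965, 0.900, 0.950, 0.788 and 0.788 in the same order. The genes were picked for their r with *A2m*, so these values are a description and no support. Wild-type means of *A2m* (6.15), *Apol10a* (2.68) and *Fgf23* were near the limit of detection. *Fgf23*, which encodes a phosphate-regulating hormone, went from a mean of 3.23 to 1850, and *Gpx3*, a secreted glutathione peroxidase, from 684 to 4065.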

How the data were processed

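Per the labels and the study's methods, the authors used Trimmomatic 0.36 for trimming, STAR 2.5.2b for alignment to GRCm38 and featureCounts (Subread 1.5.2) for strand-specific counting of uniquely mapped exonic reads. The annotation release is not given in the sources used here. The deposited spleen table holds raw gene counts, not normalized. The deposited ovary values are signal values, gene counts that the authors divided by 1 size factor per library, and 100% of them came out as whole reads within 0.001. The authors' fold changes and p-values were not used, and 16 columns that repeat normalized spleen values were left out.

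Spleen counts were tested with edgeR 4.0.16 (quasi-likelihood, TMM) on genes with at least 10 counts in 4 libraries, and ovary values with limma 3.58.1 on log2(value + 1), a scale that understates the change of low genes, on genes with at least 10 in 3 libraries. edgeR on the recovered reads called 136 genes higher and 46 lower, and limma 135 and 42. Each SE printed with edgeR was derived as the absolute log2 fold change divided by the square root of its F statistic. P-values were adjusted over all genes tested by Benjamini-Hochberg. Exact permutation tests used scipy 1.17.1. The edgeR, limma and DESeq2 p-values set each change against the spread between animals, which is estimated partly from other genes. Alternatives were DESeq2 1.42.0, RLE scaling, other filters and pseudocounts, sex, and leaving out libraries. The fits were tested on simulated data. Low counts carry counting error that is only part of the error. Positions and 3′UTRs are from GENCODE M21 (GRCm38), in which 49056 of 49315 identifiers were found, and *BC048546* was not matched. Sexes and groups are from the labels. The sample titles give wild-type spleens 3 and 4 the same number, 3, and the number 4 was assigned here. The paper describes the spleens as 4 age-matched pairs of animals. The labels do not say which animals were paired, so the main tests used no pairs.

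The members and lists were chosen with earlier results of these data known. Genes named are the members and relatives, called list genes (up to 6 a list) with the 2 most abundant, up to 3 markers a list, called and nearest neighbours within 1000 kb, and the 5 genes most like *A2m*. Genes named beyond this rule were chosen after their values were seen.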

Additional observations from a re-analysis of the deposited data

Results flagged for a closer look

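Within groups of 4 spleens, 60 sets of values were screened for 1 sample far from the others by Dixon's criterion, and 5 were flagged, where chance flags about 1 in 20. *Pzp* was at 3.03 normalized counts (3 reads) in wild-type spleen 4 and at 0 in the other wild-type spleens. *C6* was at 153 in wild-type spleen 1 against 102 at most in the others. *Lbp* was at 728 in wild-type spleen 3 against 489 at most in the others, and at 181 in L2-fKO spleen 3 against at least 270 in the others. *Orm1* was at 6.52 in L2-fKO spleen 3 against at least 16.2 in the others.

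*Cd55* was lower in every L2-fKO spleen and higher in every L2-fKO ovary than in the wild type. Its log2 fold changes in the 2 tissues lie 1.91 apart, and this difference was not tested.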

How the results depend on the processing

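The family was chosen by the log2 fold change of *A2m* in the spleen, so its range is given as a description only. It ran from 5.14 to 5.91 when 1 library was left out, and was 5.56 within the males and 5.92 with sex as a covariate. The count of members called in the spleen other than *A2m*, 1 (*C4b*), fell to 0 with the replicate block and ranged from 0 to 1 over the libraries left out. With the replicate block *C4b* was at 0.92 (adjusted p = 0.0357). No wild-type spleen carries the number of L2-fKO spleen 4, so the block leaves that library out of the comparison, and *C4b* without it was at 0.87. Deviations from the group means were correlated between libraries of the same title number. These correlations were -0.135 to 0.18 in the spleen and 0.0723 to 0.382 in the ovary. For the other combinations of libraries they were -0.293 to 0.437 and -0.326 to 0.184. With so few animals these values cannot decide whether the numbers mark pairs. The block moved the spleen calls over all genes from 490 higher and 526 lower to 498 and 693. It moved the ovary calls from 135 and 42 to 187 and 81. In the ovary *Cd109* had adjusted p = 0.0294 with the block.

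DESeq2 called 2 neighbours of *A2m* higher in place of 1, and those called lower ranged from 1 to 3 over the libraries left out. In the ovary the list genes called higher were 4 with DESeq2 in place of 2, and 0 to 3 over the libraries left out. *C3* turned direction in the spleen within the males (0.48) and ranged from -0.54 to 0.11 over the libraries left out. In the ovary *Mug1* turned to 0.24 with DESeq2 and with edgeR and to 0.04 with a pseudocount of 5, and over the libraries left out *Mug1* ranged from -0.51 to 0.63, *C3* from -0.43 to 0.14 and *Hc* from -0.60 to 0.18. None of these turns was past the test. Over all genes the spleen calls were 731 higher and 524 lower within the males, and DESeq2 on the ovary reads called 286 and 121. With no filter the spleen calls were 607 and 701. Leaving out 1 ovary moved the calls to 28 to 126 higher and 4 to 72 lower. Longest transcripts in place of all exons moved *A2m* in the L2-fKO spleen from 1.02 to 1.55 RPKM. The cause of these moves was not tested. Counts under 10 reads limit *Mug1*, *Pzp* and *Hc* in the spleen.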
